A study of Mus musculus with 8 samples.

Results

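Glucose metabolism was described through 38 listed genes of glucose uptake, glycolysis, lactate handling, the pyruvate dehydrogenase step and the pentose phosphate pathway, together with Hif1a, a transcription factor that drives many glycolytic genes. They are listed by name, and no measured value enters the rule. Of the 38 genes, 34 were matched to a probe set that carries 1 gene symbol, among 12394 genes measured in all. Hk3, Gpi1, Eno1 and G6pdx were not matched and were not analysed here.

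Cells take up glucose through transporters of the Slc2a family, and hexokinase traps it as glucose 6-phosphate. The preparatory steps of glycolysis split the phosphorylated sugar into triose phosphates, and the payoff steps turn these into pyruvate with a gain of ATP and NADH. Pyruvate is then reduced to lactate, which leaves through monocarboxylate transporters, or enters mitochondria through the pyruvate dehydrogenase complex, while the pentose phosphate pathway draws glucose 6-phosphate off to make NADPH and ribose. Immature thymocytes that proliferate after pre-T cell receptor signals are known for high glucose use.

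The series profiled CD4-CD8- cells by Affymetrix expression array, as thymocytes sorted from the thymus and as thymus emigrants, FITC-positive cells sorted from the spleen. The mice were C57BL/6 females 6 to 8 weeks old. They received corn oil alone or TCDD in a single intraperitoneal dose of 10 µg/kg, FITC was injected into the thymus 5 days later, and cells were collected 24 h after that. TCDD is a dioxin that activates the aryl hydrocarbon receptor (AhR). The 4 groups were thymocytes from oil-treated mice, thymocytes from TCDD-treated mice, emigrants from oil-treated mice and emigrants from TCDD-treated mice, with 2 arrays each, numbered 1 and 2 in the titles. Whether the arrays of a group hold RNA of different mice is not given by the labels. The p-values therefore cover the spread between these samples alone, which could be technical, and the number of arrays limits the precision of every value. Groups follow the titles, although the field for treatment of the array titled emigrants oil 1 reads TCDD. The 4 AhR target genes checked averaged 5.02 on that array, against 5.19 on emigrants oil 2 and 7.44 and 7.85 on the emigrant TCDD arrays, so it stood at the level of its title.

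Values are log2 intensities, and each gene is shown by its brightest probe set. The median over all genes lay between 4.81 and 4.91 on the 8 arrays. Cyp1b1, an AhR target gene, lay at 4.62 and 5.04 on the oil and 8.46 and 9.59 on the TCDD arrays of thymocytes, and at 4.69 and 6.25 on the oil and 6.87 and 8.36 on the TCDD arrays of emigrants. The 8 measured T lineage markers averaged between 7.28 and 7.84 on every array. The 8 markers of double negative thymocytes averaged 8.38 to 8.66 in thymocytes and 6.22 to 7.54 in emigrants. Of these markers 6 had lower means in emigrants, and Ptcra, the pre-T cell receptor alpha chain, passed the test with a difference of -3.44 (limma adjusted p = 0.0419). The other two, Cd44 and Kit, had higher means in emigrants. Rag1, which starts receptor gene rearrangement, lay between 9.33 and 10.21 in thymocytes. It lay at 9.81 on emigrants oil 2 and between 3.75 and 5.10 on the other emigrant arrays, so emigrants oil 2 stood apart for this gene. The markers did not all order the emigrant arrays alike. Dntt lay at 9.82 and 10.68 on the oil and 11.62 and 6.09 on the TCDD arrays of emigrants. The list averaged 6.53 and 7.54 on the oil and 7.01 and 6.22 on the TCDD arrays of emigrants. In bulk samples such as these, fewer cells of a type and less RNA per cell cannot be told apart.

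Of the 34 genes, 24 lay above the array median on all 8 arrays, 5 on some of them and 5 on none. The last 5 were Aldoc, Pgam2, Eno2, Slc16a3 and Pfkfb3, and no fold is given where both arrays of a group lay below their medians. The brightest signals came from Pgk1, between 11.64 and 12.41, and Ldha, between 10.74 and 11.68. Signals of different probe sets are not on a common scale, so these levels do not rank the transcripts.

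**Figure D1:**
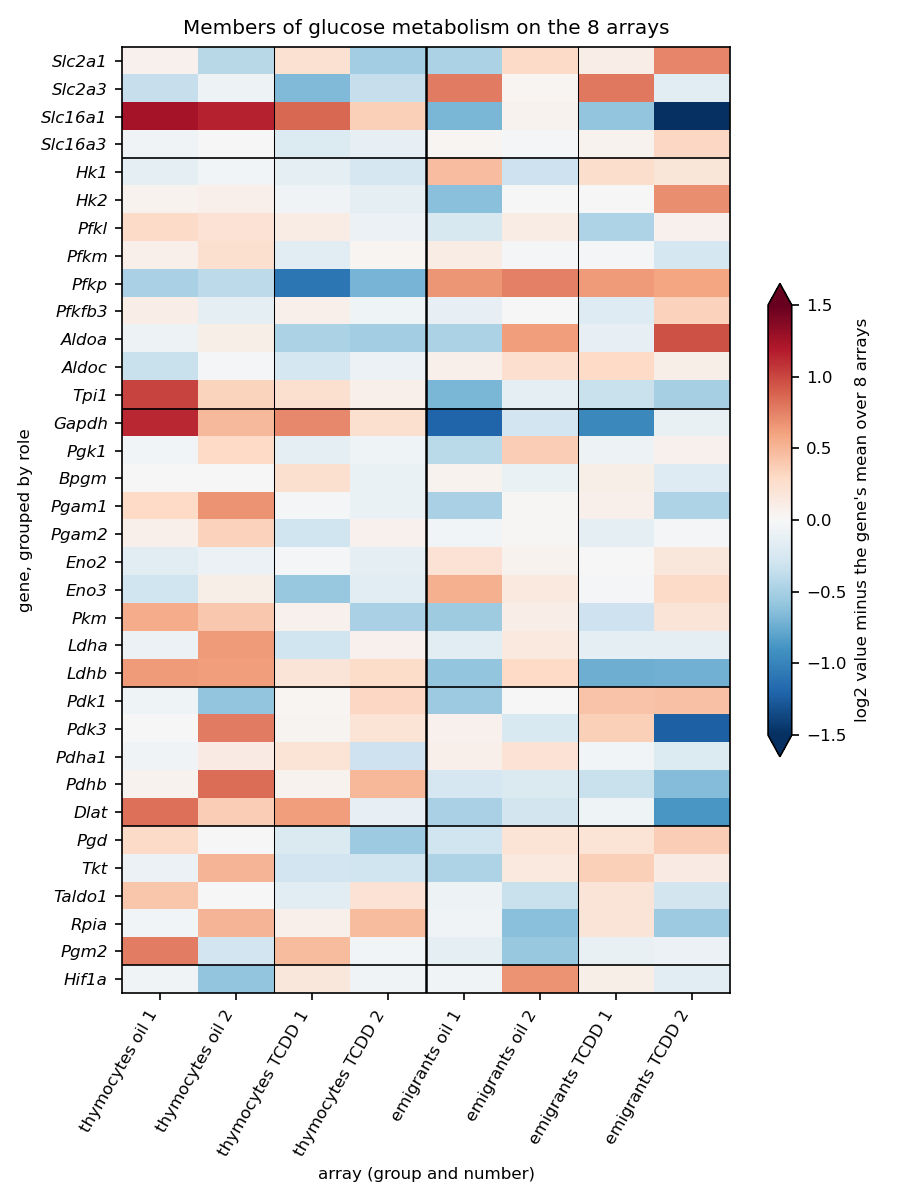
Heat map of the 34 measured genes (rows, grouped by role) on the 8 arrays (columns, by group and number), as the log2 value minus the gene's mean over the 8 arrays. Pfkp is above its mean on all 4 emigrant arrays and below it on all 4 thymocyte arrays, while Gapdh and Tpi1 show the opposite arrangement.

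The promoters of 6 genes on which the results below turn are shown because the core letters bound by the AhR with its partner ARNT (GCGTG) and those bound by HIF-1 (ACGTG or GCGTG) can be read in them directly. Each line gives the 250 bases before a RefSeq start of the gene on GRCm38.p6, 5′ to 3′ on the gene's strand, with every ACGTG or GCGTG on either strand in capitals. Pfkp lies on the minus strand (chr13:6648772-6649021), Gapdh on the minus strand (chr6:125165774-125166023), Tpi1 on the minus strand (chr6:124814159-124814408), Ldhb on the minus strand (chr6:142507958-142508207), Slc16a1 on the plus strand (chr3:104638414-104638663) and Pdk1 on the plus strand (chr2:71872974-71873223).
Pfkp: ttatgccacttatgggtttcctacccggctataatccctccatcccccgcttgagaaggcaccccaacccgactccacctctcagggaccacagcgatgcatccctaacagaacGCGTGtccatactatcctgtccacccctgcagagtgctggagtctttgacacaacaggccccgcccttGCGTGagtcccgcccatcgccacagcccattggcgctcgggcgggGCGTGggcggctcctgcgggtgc
Gapdh: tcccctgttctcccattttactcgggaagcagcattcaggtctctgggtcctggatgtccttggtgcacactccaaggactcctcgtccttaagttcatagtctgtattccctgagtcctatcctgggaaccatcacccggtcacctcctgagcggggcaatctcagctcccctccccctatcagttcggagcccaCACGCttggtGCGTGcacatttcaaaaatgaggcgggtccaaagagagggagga
Tpi1: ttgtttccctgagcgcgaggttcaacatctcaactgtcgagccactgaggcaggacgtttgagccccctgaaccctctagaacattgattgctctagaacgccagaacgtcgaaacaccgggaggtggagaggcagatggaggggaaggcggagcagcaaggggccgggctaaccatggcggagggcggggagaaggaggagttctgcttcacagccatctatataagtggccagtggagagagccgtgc
Ldhb: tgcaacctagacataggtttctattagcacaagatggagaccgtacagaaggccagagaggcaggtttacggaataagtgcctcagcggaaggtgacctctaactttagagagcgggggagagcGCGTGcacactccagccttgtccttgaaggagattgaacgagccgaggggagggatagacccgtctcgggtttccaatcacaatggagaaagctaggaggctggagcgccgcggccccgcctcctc
Slc16a1: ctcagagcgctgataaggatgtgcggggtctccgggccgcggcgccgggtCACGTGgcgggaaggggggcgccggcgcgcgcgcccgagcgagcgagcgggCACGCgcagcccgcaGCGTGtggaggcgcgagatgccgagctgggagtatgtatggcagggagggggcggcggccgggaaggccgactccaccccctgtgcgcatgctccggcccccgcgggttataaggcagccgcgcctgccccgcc
Pdk1: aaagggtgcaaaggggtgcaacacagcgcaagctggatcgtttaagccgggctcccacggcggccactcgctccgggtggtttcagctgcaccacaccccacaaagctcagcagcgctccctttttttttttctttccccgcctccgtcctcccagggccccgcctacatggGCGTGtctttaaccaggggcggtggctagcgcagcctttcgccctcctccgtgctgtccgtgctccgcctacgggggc
The Pfkp window held 3 GCGTG matches, the Gapdh window 2, the Ldhb and Pdk1 windows 1 each and the Tpi1 window none. Pdk1 has 2 start windows in the table, of which the upstream one is shown, and the other held neither motif. Slc16a1 held 2 GCGTG matches and 1 CACGTG, which is the same on both strands and therefore contains ACGTG on each.

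Promoter windows were found for 33 of the 34 genes. A gene was counted where any of its start windows held the letters. GCGTG stood in 21 of these 33 (63.6%), against 30.9% of 27025 genes in the RefSeq table. ACGTG stood in 15 (45.5%), against 18.5% of all, and CACGTG, the E-box read by Myc and other factors, in 5 (15.2%), against 6.86%. Counted per window, of which the 33 genes had 45, the shares were 51.1% against 28.2% for GCGTG, and 18 of the 45 held ACGTG, against 16.6% of all windows. The windows of the listed genes were richer in G and C, with a median of 60.4% against 52.4% over all windows, and the shares were not adjusted for this. The 27025 genes also include genes not measured on the arrays, where 12394 were measured, and shares over the measured genes alone were not computed. A match describes letters only, not a bound site.

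Emigrants and thymocytes were compared first, as the mean of the oil and TCDD differences. Pfkp, the platelet isoform of phosphofructokinase, which catalyses the committed step of glycolysis, was higher in emigrants. Its level was 6.21 and 6.30 on the oil and 5.61 and 5.99 on the TCDD arrays of thymocytes, and 7.36 and 7.45 on the oil and 7.33 and 7.29 on the TCDD arrays of emigrants. All 4 emigrant arrays lay above all 4 thymocyte arrays, and the emigrant arrays were close together. Pfkp rose by 1.33 (SE 0.12) on the log2 scale, 2.51-fold, with a limma adjusted p of 0.0239 over all genes. It was the only one of the 34 genes to pass the threshold of 0.05 in either direction, where 0.0645% of all genes were called higher in emigrants and 0.0807% lower.

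The Pfkp call rested on most of the arrays. It was lost when any one of 7 of the 8 arrays was left out: thymocytes oil 1 (adjusted p = 0.131) or oil 2 (0.106), thymocytes TCDD 1 (0.105) or TCDD 2 (0.0565), emigrants oil 1 (0.103) or oil 2 (0.0503), or emigrants TCDD 2 (0.129), each by limma. Without emigrants TCDD 1 the adjusted p was 0.0434, and the difference stayed between 1.23 and 1.42 in all these fits. With trend and robust settings of the limma prior the adjusted p was 0.0536, and averaging the probe sets of Pfkp gave a difference of 0.62 (adjusted p = 0.0444), since the other probe set of the gene is dim, with a mean level of 3.88 and a difference of -0.09.

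The other phosphofructokinase isoforms had small differences. Pfkl, the liver isoform, lay at 6.28, 6.20, 6.10 and 5.90 in thymocytes (oil, then TCDD) and 5.75, 6.09, 5.52 and 6.05 in emigrants, a difference of -0.27 (SE 0.16). Pfkm, the muscle isoform, lay between 5.83 and 6.25 in thymocytes and 5.75 and 6.12 in emigrants, a difference of -0.09 (SE 0.12). Both overlapped between the sources, so among these isoforms only Pfkp separated them, and the differences between isoforms were not tested.

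**Figure D2:**
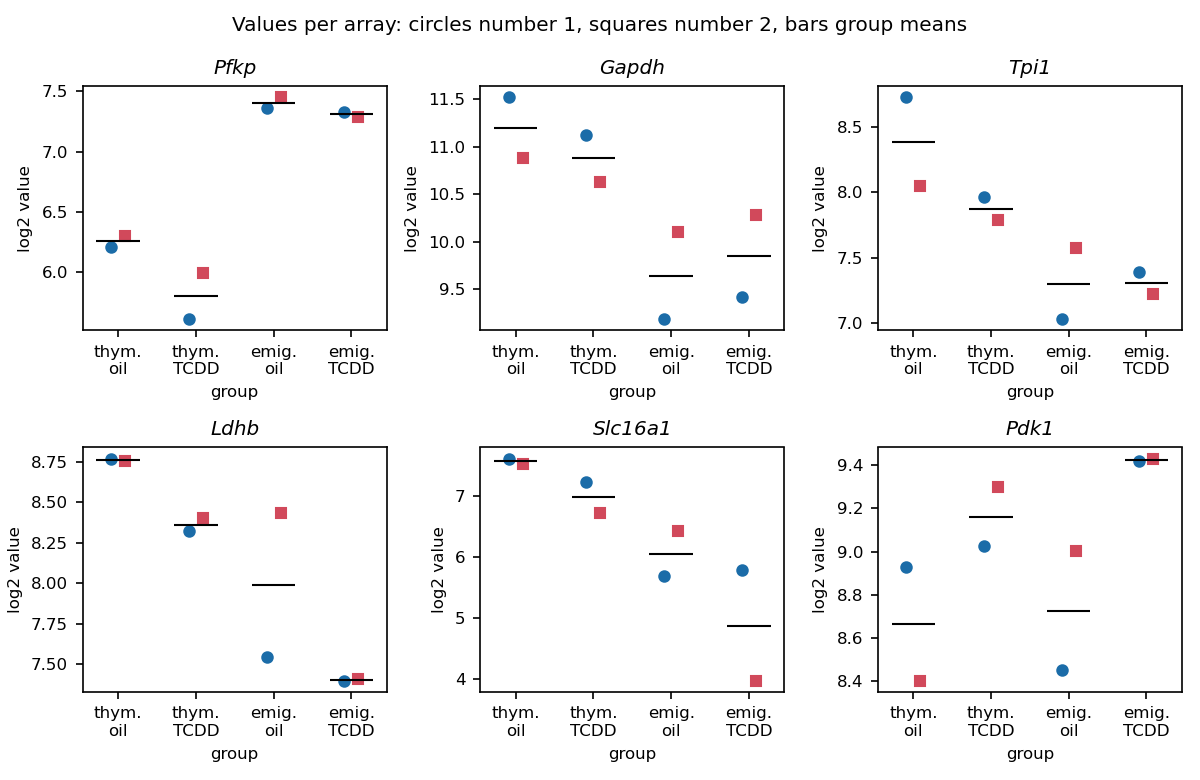
Log2 value of 6 genes on each array (circles, number 1; squares, number 2; bars, group means) in thymocytes (thym.) and emigrants (emig.) after oil or TCDD. The emigrant arrays of Pfkp lie between 7.29 and 7.45, above every thymocyte array, and the Slc16a1 value of emigrants TCDD 2, 3.98, lies apart from the rest.

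Among transporters, Slc16a1, which carries lactate and pyruvate across the plasma membrane, had the largest difference of all 34 genes between the sources. It lay at 7.62 and 7.53 on the oil and 7.24 and 6.72 on the TCDD arrays of thymocytes, and at 5.68 and 6.43 on the oil and 5.78 and 3.98 on the TCDD arrays of emigrants. Every emigrant array was below every thymocyte array. Emigrants TCDD 2 was far below the others and alone lay below its array median, 4.91, where signal and background are hard to separate. The log2 difference was -1.81 (SE 0.41), and it did not pass the test (limma adjusted p = 0.120). Without emigrants TCDD 1 the difference was -2.26 and passed it (adjusted p = 0.0434). With emigrants TCDD 2 left out instead it was -1.36.

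Slc2a3, the high-affinity glucose transporter GLUT3, went the other way. It lay at 6.86, 7.14, 6.55 and 6.86 in thymocytes and 7.99, 7.24, 8.00 and 7.06 in emigrants, in the order oil 1, oil 2, TCDD 1 and TCDD 2. The emigrant arrays numbered 1 were high and those numbered 2 were near the thymocytes, for a difference of 0.72 (SE 0.27, limma adjusted p = 0.275). Slc2a1, the widely expressed transporter GLUT1, lay near the array medians in both sources, between 4.45 and 5.70, and differed by 0.32 (SE 0.28). Its other, dimmer probe sets gave 0.17 and -0.02. Slc16a3, a lactate exporter, was dim everywhere, between 3.61 and 4.13.

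In the preparatory steps the hexokinases, which phosphorylate glucose, did not separate the sources. Hk1 lay between 6.54 and 6.75 in thymocytes and 6.47 and 7.25 in emigrants, a difference of 0.29 (SE 0.18). Hk2, the inducible isoform, lay at 7.23, 7.26, 7.12 and 7.03 in thymocytes and 6.56, 7.17, 7.17 and 7.88 in emigrants, a difference of 0.03 (SE 0.21). Aldoa, an aldolase, which splits fructose 1,6-bisphosphate, lay between 7.85 and 8.46 in thymocytes and 7.89 and 9.32 in emigrants, where the arrays numbered 2 were the high ones. Aldoc, another aldolase, was dim, yet its emigrant arrays (4.27 to 4.49) all lay above its thymocyte arrays (3.86 to 4.16).

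Tpi1, which interconverts the triose phosphates, was lower on every emigrant array than on any thymocyte array. Its values were 8.73 and 8.05 on the oil and 7.96 and 7.79 on the TCDD arrays of thymocytes, against 7.03 and 7.57 on the oil and 7.39 and 7.22 on the TCDD arrays of emigrants. The difference was -0.83 (SE 0.20, limma adjusted p = 0.129), and the other Tpi1 probe sets gave -0.81 and -0.77.

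Gapdh, which catalyses the first payoff step, was arranged in the same way. It lay at 11.52 and 10.88 on the oil and 11.12 and 10.63 on the TCDD arrays of thymocytes, and at 9.19 and 10.10 on the oil and 9.42 and 10.28 on the TCDD arrays of emigrants. No emigrant array reached a thymocyte array, and the emigrant arrays numbered 1 were the lowest. The difference was -1.29 (SE 0.31, limma adjusted p = 0.128), a mean signal 2.44-fold lower in emigrants that did not pass the test.

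The array carries Gapdh probe sets for the 3′ end, the middle and the 5′ end of the transcript, and all had lower means in emigrants, by differences of -1.29, -1.62 and -0.82. The middle probe set lay between 9.21 and 9.77 in thymocytes and between 7.18 and 8.76 in emigrants. The gap between the 3′ and the 5′ probe set, which widens where RNA is degraded or amplification falls short, was 4.78 to 6.23 in thymocytes and 4.81 to 5.32 in emigrants. The same gap for actin was 3.06 to 4.31 in thymocytes and 3.34 to 4.68 in emigrants, and both ranges overlapped between the sources. The 5′ probe set lay below the array median on emigrants oil 1 (4.38 against 4.89) and emigrants TCDD 1 (4.46 against 4.88), where differences are compressed. The gap between the 3′ and the middle probe set was 1.75, 1.14, 1.91 and 1.08 in thymocytes (oil 1, oil 2, TCDD 1, TCDD 2) and 1.94, 1.34, 2.24 and 1.68 in emigrants. It was wider in emigrants for each treatment and number, but the ranges of the sources overlapped, and the labels do not pair arrays across sources. The part of RNA quality in the Gapdh difference was not tested.

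**Figure D3:**
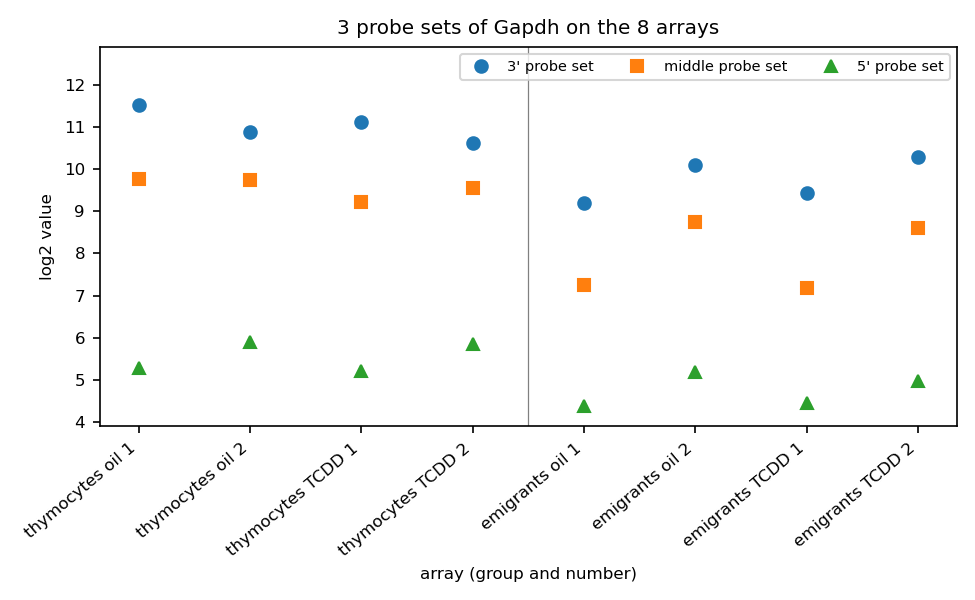
Log2 value of the 3 Gapdh probe sets (3′ end, circles; middle, squares; 5′ end, triangles) on the 8 arrays, with thymocytes left and emigrants right of the line. The 3′ probe set lies between 10.63 and 11.52 in thymocytes and between 9.19 and 10.28 in emigrants.

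Later payoff genes differed less. Pgk1, phosphoglycerate kinase, lay between 11.89 and 12.34 in thymocytes and 11.64 and 12.41 in emigrants, a difference of -0.02 (SE 0.19). Pgam1, a phosphoglycerate mutase, lay at 7.73, 8.11, 7.42 and 7.33 in thymocytes and 6.94, 7.45, 7.51 and 6.97 in emigrants, a difference of -0.43 (SE 0.19). Under oil the emigrant arrays of Pgam1 were both lower (difference -0.72, SE 0.27), and under TCDD the sources overlapped. Bpgm, which makes 2,3-bisphosphoglycerate, stayed between 7.80 and 8.22 on all 8 arrays.

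Eno3, the muscle enolase, lay at 4.90, 5.30, 4.64 and 5.04 in thymocytes and 5.74, 5.36, 5.19 and 5.49 in emigrants, a difference of 0.47 (SE 0.17, limma adjusted p = 0.266). Eno2, the neuronal enolase, was dim, at 3.57 to 3.71 in thymocytes and 3.74 to 3.96 in emigrants, without overlap. Pkm, pyruvate kinase, lay at 5.96, 5.80, 5.46 and 4.91 in thymocytes and 4.87, 5.49, 5.09 and 5.60 in emigrants, a difference of -0.27 (SE 0.21). Its value on emigrants oil 1 was just below the median of that array, 4.89.

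Of the lactate dehydrogenase subunits neither passed the test, and the contrast between them was not tested. Ldha, the subunit that favours lactate formation, lay at 10.95, 11.68, 10.74 and 11.11 in thymocytes and 10.87, 11.19, 10.89 and 10.90 in emigrants, a difference of -0.16 (SE 0.20). Ldhb, the subunit that favours pyruvate formation, lay at 8.77, 8.75, 8.32 and 8.40 in thymocytes and 7.54, 8.43, 7.40 and 7.41 in emigrants. Emigrants oil 2 alone overlapped the thymocytes, and the difference was -0.86 (SE 0.20, limma adjusted p = 0.120). The other Ldhb probe sets gave larger differences of -1.46, -1.26 and -1.79.

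At the entry to the mitochondrion, Pdhb, the beta subunit of the E1 enzyme of pyruvate dehydrogenase, lay at 8.50, 9.29, 8.51 and 8.95 in thymocytes and 8.20, 8.24, 8.12 and 7.81 in emigrants. The sources did not overlap, with a difference of -0.72 (SE 0.21, limma adjusted p = 0.181). Dlat, the E2 subunit, had a difference of -0.85 (SE 0.26) with overlap, and its dimmest probe set gave -0.08. Pdha1, the alpha subunit of E1, lay between 9.69 and 10.21 on all 8 arrays and differed by 0.02 (SE 0.14). The kinases that inhibit the complex, Pdk1 and Pdk3, differed by 0.16 (SE 0.18) and -0.51 (SE 0.37), and another bright Pdk1 probe set gave -0.20.

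The pentose phosphate genes overlapped between the sources. Pgd, the oxidative enzyme 6-phosphogluconate dehydrogenase, and Tkt, transketolase, differed by 0.24 (SE 0.16) and 0.08 (SE 0.20). Taldo1, transaldolase, Rpia, ribose 5-phosphate isomerase, and Pgm2, a phosphopentomutase, had lower means in emigrants, with differences of -0.25, -0.52 and -0.45. Hif1a differed by 0.26 (SE 0.21), and its next brightest probe set by -0.16.

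Over the 34 genes, 16 had higher and 18 lower means in emigrants, where 45.2% of all genes had lower means. The median difference of the 34 was -0.05 against 0.02 over all genes. That median took the other sign, 0.01, when quantile normalization was repeated. Pfkp, Aldoc and Eno2 were higher without overlap, where 6.87% of all genes were, and Tpi1, Gapdh, Slc16a1 and Pdhb were lower without overlap, where 6.04% of all genes were. At an unadjusted p under 0.05, 4 of the 34 were higher and 6 lower, where 15.6% of all genes passed in either direction. Within oil alone 12 genes had higher and 22 lower means (median -0.20), with 5 higher and 13 lower without overlap, where 19.8% and 19.6% of all genes were. Within TCDD alone the means were 17 higher and 17 lower (median 0.00), with 12 higher and 6 lower without overlap, where 22.1% and 15.5% of all genes were. Of all genes 49.6% had lower means in emigrants under oil and 42.8% under TCDD. No gene of the 34, or of all genes, passed within either treatment by limma (0% called; at an unadjusted p under 0.05, 7 of the 34 and 9.57% of all genes under oil, and 5 of the 34 and 8.25% under TCDD).

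Marker lists also had different levels in the sources. All 15 measured proliferation genes had lower means in emigrants, with a median difference of -1.03. Of these, 10 had an unadjusted limma p under 0.05, as 15.6% of all genes did, and 0 passed the adjusted threshold. The list averaged 7.90 to 9.003 in thymocytes and 7.11 to 7.98 in emigrants. The 8 measured NK cell markers averaged 6.49 to 7.37 in thymocytes and 6.88 to 7.92 in emigrants, and the 8 macrophage markers 6.11 to 6.55 and 6.22 to 7.60. The 6 measured B cell markers averaged 6.60 to 7.01 in thymocytes and 5.87 to 6.09 in emigrants. Under oil all 10 granulocyte markers were lower without overlap in emigrants (median difference -1.32), where 19.6% of all genes were. Over both treatments 8 of 10 had lower means (median -0.58). The 7 measured erythroid markers averaged 5.00 to 5.17 in thymocytes and 5.09 to 6.48 in emigrants, and the 5 platelet markers 5.42 to 5.86 and 5.37 to 6.32. The part of these lists in the differences of the glucose genes was not tested.

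**Figure D4:**
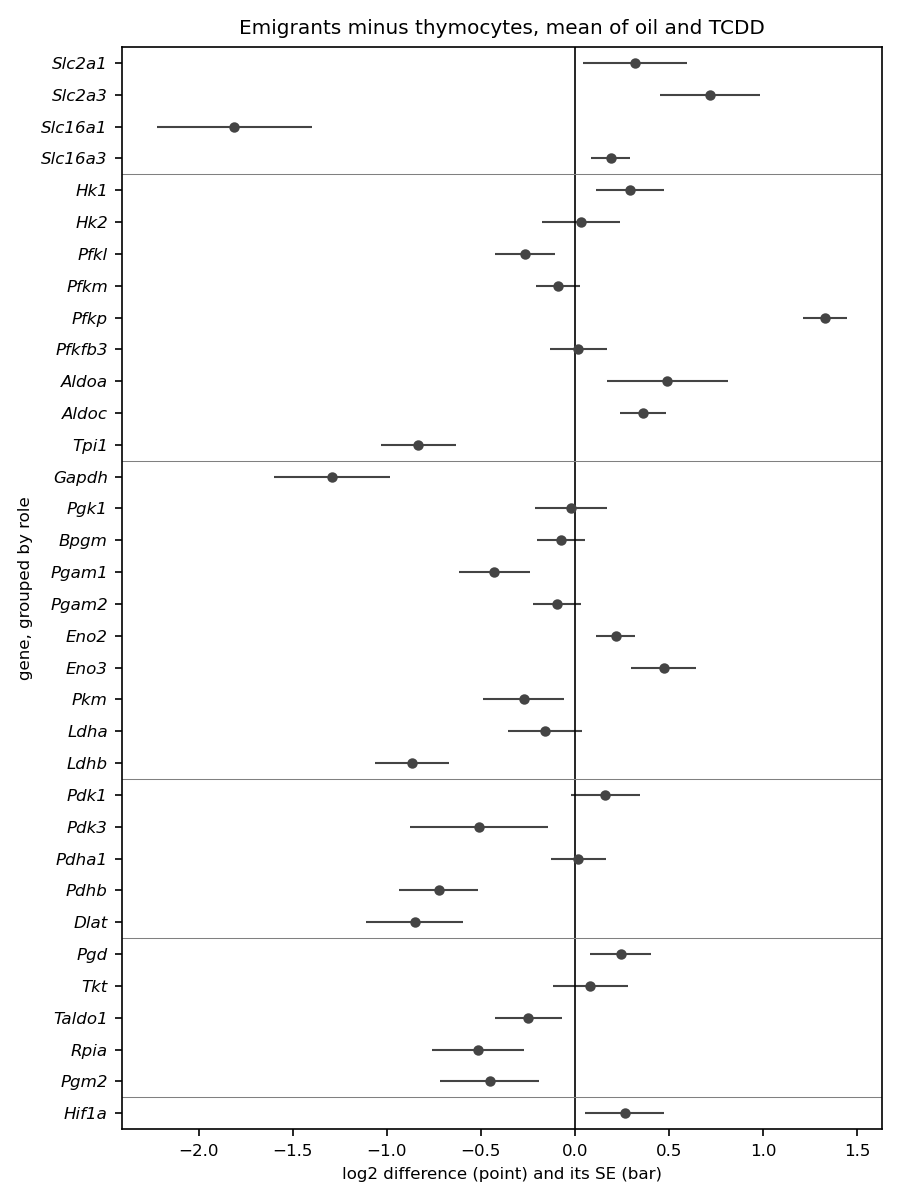
Log2 difference between emigrants and thymocytes, mean of both treatments, for each of the 34 genes (points) with its standard error (bars), grouped by role. Pfkp stands highest at 1.33, and Slc16a1 lowest at -1.81.

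TCDD was compared with oil within thymocytes next. No gene of the 34, or of all genes, passed the adjusted threshold by limma (0% called), and at an unadjusted p under 0.05 there was 1 of the 34, Pfkp, and 1.57% of all genes. The means leaned one way: 26 of the 34 genes had lower means after TCDD and 8 higher, with a median difference of -0.24 against -0.01 over all genes. Lower means were found for 51.4% of all genes. In 16 genes (47.1%) both TCDD arrays lay below both oil arrays, where 11.4% of all genes did, and in 2 genes (5.88%) both lay above, where 9.78% of all genes did. Taking arrays of the same number together, 21 genes (61.8%) were lower in both numbers and 2 (5.88%) higher, where 28.9% and 25.7% of all genes were.

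The preparatory steps held 7 of the genes without overlap. Pfkp, with the thymocyte values given above, differed by -0.46 (SE 0.17, unadjusted p = 0.0335, limma adjusted p = 1.00). Tpi1 differed by -0.51 (SE 0.28), with its oil array 1 well above the other thymocyte arrays. Aldoa lay at 8.28 and 8.46 after oil and 7.88 and 7.85 after TCDD, a difference of -0.51 (SE 0.45). The differences of Hk1, Hk2, Pfkl and Pfkm, all lower without overlap, lay between -0.24 and -0.10, and for Hk1 thymocytes oil 1 and TCDD 1 were both at 6.64.

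Among payoff genes, 8 of 10 had lower means and 5 of these did not overlap. Pkm, at 5.96 and 5.80 after oil and 5.46 and 4.91 after TCDD, had the lowest difference of all 34 genes, -0.69 (SE 0.30). Its value on thymocytes TCDD 2 was close to the median of that array, 4.86. Pgam1, at 7.73 and 8.11 against 7.42 and 7.33, differed by -0.55 (SE 0.27), and Ldhb, at 8.77 and 8.75 against 8.32 and 8.40, by -0.40 (SE 0.28). Pgk1 differed by -0.24 (SE 0.27) without overlap, Ldha by -0.39 (SE 0.28) with overlap and Gapdh by -0.33 (SE 0.44) with overlap. Eno2 and Bpgm had differences of 0.04 and 0.06, and both took the other sign without thymocytes TCDD 1 (-0.02 and -0.11).

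In the pentose phosphate pathway Pgd and Tkt were lower without overlap. Pgd lay at 9.37 and 9.08 after oil and 8.88 and 8.54 after TCDD, a difference of -0.52 (SE 0.23). Its other probe sets gave -0.58, -0.50 and -0.95. Tkt lay at 10.53 and 11.14 after oil and 10.34 and 10.33 after TCDD, a difference of -0.50 (SE 0.28).

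The genes that stood above were Pdk1, the kinase that switches off pyruvate dehydrogenase, and Hif1a. Pdk1 lay at 8.93 and 8.40 after oil and 9.02 and 9.30 after TCDD, a difference of 0.50 (SE 0.26), and its other probe set gave 0.46. Hif1a lay at 8.78 and 8.24 after oil and 9.01 and 8.79 after TCDD, a difference of 0.39 (SE 0.30). The margin between the treatments was small for both, since thymocytes oil 1 was close to the TCDD arrays. All these differences had a limma adjusted p of 1.00.

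Beside these values, 14 of the 15 measured proliferation genes had lower means in thymocytes after TCDD, with a median difference of -0.34 and list averages of 9.003 and 8.26 after oil (arrays 1 and 2) and 8.58 and 7.90 after TCDD. All 10 granulocyte markers had lower means too, with list averages of 7.65 and 6.94 after oil and 7.58 and 6.17 after TCDD. Within each array number both lists were lower after TCDD. Their part in the differences of the glucose genes was not tested.

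**Figure D5:**
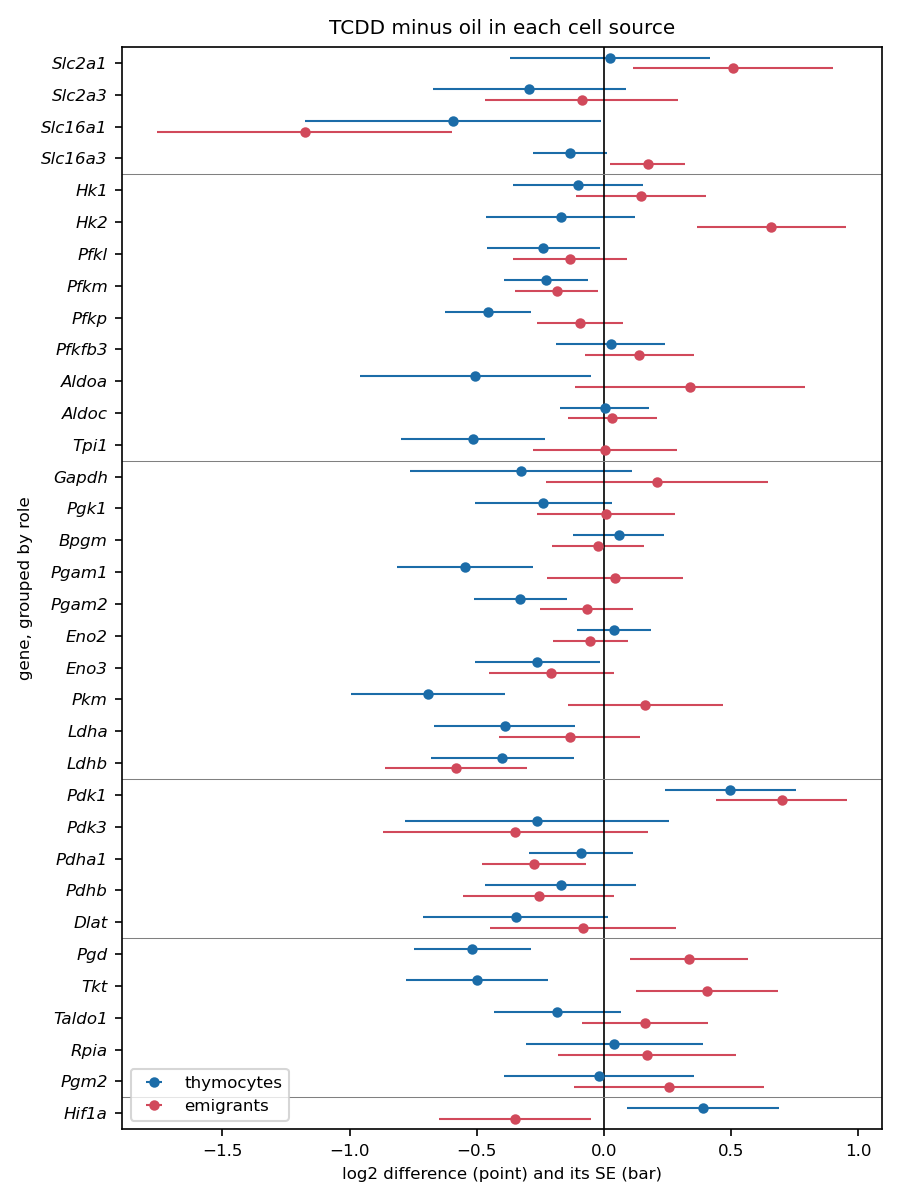
Log2 difference between TCDD and oil for each of the 34 genes (points) with its standard error (bars), in thymocytes (blue) and emigrants (red), grouped by role. Thymocyte points lie left of 0 for 26 genes and emigrant points for 16, and Pdk1 lies right of 0 in both.

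In emigrants the same comparison did not lean, and 44.4% of all genes had lower means after TCDD. Of the 34 genes 18 had higher and 16 lower means after TCDD, with a median difference of 0.01 against 0.03 over all genes, and no gene of the 34 or of all genes passed the adjusted threshold by limma (0% called; 1 of the 34, Pdk1, and 1.18% of all genes at an unadjusted p under 0.05). For 3 genes, Pdk1, Slc16a3 and Pgm2, the lower TCDD array exceeded the higher oil array (8.82%, against 14.6% of all genes), and for 5 the order was the opposite (14.7%, against 10.1%). Centring each array on its median turned the median of the 34 genes to -0.03, and leaving out emigrants oil 1 turned it to -0.11.

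Pdk1 was again on the higher side. It lay at 8.45 and 9.003 after oil and 9.42 and 9.43 after TCDD, a difference of 0.70 (SE 0.26, unadjusted p = 0.0339, limma adjusted p = 1.00), and its other probe set also gave 0.70. Hk2, at 6.56 and 7.17 against 7.17 and 7.88, differed by 0.66 (SE 0.29), with emigrants oil 2 and TCDD 1 at the same level. Slc2a1, at 4.50 and 5.26 against 5.07 and 5.70, differed by 0.51 (SE 0.39) and overlapped. Its other, dimmer probe sets gave smaller differences of 0.09 and 0.13.

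All 5 pentose phosphate genes among the 34 had higher means after TCDD in emigrants, but of 8 further genes of that pathway 3 had higher and 5 lower means, with a median of -0.22. Pgd lay at 8.79 and 9.30 after oil and 9.30 and 9.46 after TCDD, a difference of 0.34 (SE 0.23). Tkt lay at 10.16 and 10.77 after oil and 10.99 and 10.75 after TCDD, a difference of 0.40 (SE 0.28). Emigrants oil 1 was the low array for both, and counting it as TCDD, as its treatment field reads, turned the differences to -0.12 for Pgd and -0.13 for Tkt, although its AhR target genes were at the oil level.

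On the lower side, Ldhb lay at 7.54 and 8.43 after oil and 7.40 and 7.41 after TCDD, a difference of -0.58 (SE 0.28). Emigrants oil 2 was the high array, and without it the difference was -0.14. The other Ldhb probe sets gave larger differences of -1.26, -0.89 and -1.30 with all arrays. On each of them emigrants oil 1 also lay above both TCDD arrays. Slc16a1 had a difference of -1.18 (SE 0.58), which rested on emigrants TCDD 2 and was -0.27 without that array. Pfkm, Pfkp, Pdha1 and Pdhb were lower without overlap by differences between -0.27 and -0.10. Hif1a, at 8.78 and 9.51 against 8.92 and 8.67, differed by -0.35 (SE 0.30), and by 0.01 without emigrants oil 2.

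Gapdh is an example of probe sets that disagree here. Its 3′ probe set differed by 0.21 (SE 0.44) in emigrants, the middle one by -0.11 and the 5′ one by -0.08. For Pgk1 the brightest probe set differed by 0.01 and the other bright ones by -0.28 and -0.35.

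All 10 granulocyte markers had higher means in emigrants after TCDD, with list averages of 6.17 and 5.88 after oil and 8.35 and 5.54 after TCDD, so the list was high on emigrants TCDD 1 and below the oil arrays on emigrants TCDD 2. The 8 macrophage markers averaged 6.22 and 7.24 after oil and 6.84 and 7.60 after TCDD. All 5 platelet markers were higher without overlap after TCDD, where 14.6% of all genes were. Their list averages were 5.37 and 5.63 after oil and 5.83 and 6.32 after TCDD. All 7 measured erythroid markers had higher means, with a median difference of 0.49. Of the 8 measured NK cell markers 3 had higher and 5 lower means, with a median of -0.33. The part of these lists in the differences of the glucose genes was not tested in emigrants.

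Whether the response to TCDD differed between the sources was tested by the interaction. Of the 34 genes 26 had a more positive difference in emigrants than in thymocytes and 8 a more negative one. Of all genes 43.3% had a more negative one. The median was 0.25 against 0.04 over all genes. No gene of the 34 or of all genes passed by limma (0% called). At an unadjusted p under 0.05 there were 1 of the 34, Pgd, and 1.18% of all genes. Pgd had an interaction of 0.85 (SE 0.33, unadjusted p = 0.0385), Tkt of 0.90 (SE 0.39), Pkm of 0.85 (SE 0.43) and Hk2 of 0.83 (SE 0.41), each with an adjusted p of 1.00. Hif1a had one of -0.74 (SE 0.42). Single arrays moved some of these by over 1.5 times: Hk2 had 0.47 without emigrants TCDD 2, Pkm 0.54 and Tkt 0.60 without emigrants oil 1, and Hif1a -0.38 without emigrants oil 2. By direction alone, 13 genes had lower means after TCDD in both sources, 13 were lower in thymocytes and higher in emigrants, 5 were higher in both, and 3 were higher in thymocytes and lower in emigrants. The interaction and both TCDD comparisons use the same arrays, so these counts are not independent.

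Averaged over both sources, Pdk1 had the smallest p for TCDD among the 34 genes. Its difference was 0.60 (SE 0.18, unadjusted p = 0.0159), and it was higher without overlap in both sources, where 1.48% of all genes were. Pfkm, Pfkp and Ldhb were lower without overlap in both sources, where 1.15% of all genes were, by differences of -0.21, -0.28 and -0.49. For Pfkm this order is a tie in emigrants at the precision given, since emigrants oil 2 and TCDD 1 were both at 5.99. None passed the adjusted threshold by limma (0% of all genes called; 2 of the 34, Pdk1 and Ldhb, and 1.4% of all genes at an unadjusted p under 0.05).

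Other genes of the same pathways, 83 listed and 68 measured, gave no gene past the adjusted threshold by limma in any of the 7 comparisons. Between the sources, 3 of them were higher in emigrants and 7 lower at an unadjusted p under 0.05, 14.7% of the 68, near the 15.6% of all genes. Ugp2, which makes UDP-glucose for glycogen synthesis, lay between 6.45 and 6.67 in thymocytes and 7.27 and 7.94 in emigrants, a difference of 0.92 (SE 0.16, adjusted p = 0.0747). Dera, which splits deoxyribose 5-phosphate, lay between 7.14 and 7.93 in thymocytes and 6.63 and 7.06 in emigrants, a difference of -0.74 (SE 0.15, adjusted p = 0.0940). Pgam5, a mitochondrial phosphatase related in sequence to the mutases, differed by -0.94 (SE 0.20, adjusted p = 0.0992).

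Of the 8 measured genes added for the pentose phosphate pathway, 7 had lower means in emigrants, with a median difference of -0.48. The 12 measured transport genes had a median of 0.11, with 9 higher and 3 lower. In thymocytes after TCDD the smallest p among these 68 genes belonged to Mlx, a partner of glucose-sensing transcription factors, with a difference of -0.40 (SE 0.16, unadjusted p = 0.0407), and in emigrants to Tktl1, a transketolase-like gene, with -0.54 (SE 0.19, unadjusted p = 0.0296). Both had a limma adjusted p of 1.00.

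Array number separated the emigrant arrays for about the same share of the glucose genes as of all genes, and the thymocyte arrays for a smaller one. In emigrants, both arrays numbered 2 lay above both numbered 1 for 11 of the 34 genes (32.4%) and below them for 6 (17.6%), where 24.9% and 22.8% of all genes did so. Aldoa, Gapdh and Hk2 were higher on the arrays numbered 2 by 1.09, 0.88 and 0.66 on average, and Slc2a3 and Rpia differed by -0.85 and -0.66. In thymocytes the counts were 7 (20.6%) and 6 (17.6%), where 32.4% and 30.9% of all genes did so. The labels do not say what a number stands for.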

How the data were processed

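RNA of the sorted cells was amplified and hybridised to Affymetrix arrays, per the labels' protocols. The deposited table of the authors holds log2 values, 1 row for each of 22690 probe sets. The submitters' processing notes name RMA, whose version is not given in the sources used here. Since RMA makes array distributions alike, a shift shared by most genes would go unseen, and it narrows differences near background. A gene symbol of their own was carried by 20393 probe sets; the 691 with several symbols and the 1606 without one were not used. Of these, 20364 were found by gene identifier in a RefSeq table of GRCm38.p6, which gave the symbol. The brightest probe set by the mean of the 8 arrays stands for its gene, which gave 12394 genes. Of the 34 matched genes, 14 had 1 probe set and 20 several. No filter on dim genes was used.

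The tests came from limma 3.58.1 under R 4.3.3 (lmFit and eBayes on 4 group means, leaving 4 residual degrees of freedom). They were two-sided and adjusted by Benjamini-Hochberg over all 12394 genes, with a threshold of 0.05. SE is the moderated standard error. Figures were drawn with matplotlib 3.10.9. The members and lists were chosen with earlier results of these data known, so counts over them are descriptions beside the same count over all genes. Per-array values are given for a fixed set of members and, in each comparison, for those past the threshold or else the 4 with the smallest p in each direction. Of the other pathway genes, those past the threshold or else those with the smallest p are named. Tested on simulated arrays of 12394 genes for the mean difference between the sources, the code found 48% of the genes given a change of 1 log2 unit and 76% at 2 units, and it called 7 genes that had been given none. For TCDD in thymocytes it found 30% and 68%, and called 15 such genes. The simulated noise was independent between arrays and many genes were changed together, so these shares do not carry over to the measured arrays. There the 4 AhR target genes differed by 0.68 to 4.20 for TCDD in thymocytes, and none was called.

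Groups follow the titles. Besides emigrants oil 1, whose treatment field reads TCDD, emigrants oil 2 is entered there as Dioxane 2. For some emigrant arrays thymus is entered as the tissue, and the protocol text of the thymocyte TCDD arrays names corn oil alone. Alternatives were centring the arrays on their medians, a further round of quantile normalization, only brighter genes, every probe set, averaged probe sets, trend and robust settings of eBayes, the array number as a replicate block, fits on the arrays of 1 comparison, grouping emigrants oil 1 by its treatment field, and leaving out each array in turn, where the lone array of a group is assumed to vary like the others.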

Additional observations from a re-analysis of the deposited data

Results flagged for a closer look

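Slc16a3, the lactate exporter MCT4, had both TCDD arrays below both oil arrays in thymocytes (3.61 and 3.70 against 3.76 and 3.81) and above them in emigrants (3.87 and 4.13 against 3.85 and 3.80). The interaction of 0.31 (SE 0.21) on the log2 scale did not pass the test (limma adjusted p = 1.00). All 8 values lay below the medians of their arrays, where signal and background are hard to separate.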

How the results depend on the processing

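Over the alternatives, 218 of the 240 values that answer a comparison were kept. These include the counts of genes called, which with the settings of the report were 0 except for the mean difference between the sources. For TCDD and the interaction no gene of all came near the threshold, so these counts had little room to change. The total is therefore no measure of how firm the Pfkp call is. A count of genes called was kept if it did not change. A median was kept if it moved by less than 0.079. This is the spread between arrays of a group in the median of the 34 genes, each centred on its mean. It is not the spread of a median difference between groups. A change of sign within that size was counted as kept. The count of the 34 genes called between the sources, 1 with the settings of the report, was 0 with trend and robust settings of eBayes and between 0 and 2 when each array was left out in turn. With emigrants oil 1 grouped by its treatment field, 1 gene of the 34, Pfkp, passed between the sources within TCDD (difference 1.53, adjusted p = 0.0411). The same setting gave medians of -0.12 between the sources under oil, -0.12 for TCDD in emigrants and 0.15 for the interaction. It also turned the sign of Pgd (-0.12) and Tkt (-0.13) for TCDD in emigrants, and of Hk2 (-0.072) and Slc2a1 (-0.073) for TCDD over both sources. With only brighter genes, which kept 26 of the 34, the median of those 26 was -0.34 between the sources under oil and -0.18 for TCDD over both sources. Averaged probe sets turned Bpgm for TCDD in thymocytes (-0.017) and Pfkfb3 for TCDD over both sources (-0.11). The cause of these changes was not tested.

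Leaving out each array in turn gave medians from -0.31 to -0.12 between the sources under oil, -0.11 to 0.030 for TCDD in emigrants, -0.31 to -0.16 for TCDD in thymocytes, -0.21 to -0.065 for TCDD over both sources and 0.13 to 0.27 for the interaction. Values that changed sign in these fits ranged from -0.053 to 0.22 for Pfkfb3 over both sources, -0.71 to 0.013 for Hif1a in emigrants, -0.023 to 0.10 for Eno2 and -0.11 to 0.23 for Bpgm in thymocytes, and, for the interaction, -1.49 to 0.32 for Slc16a1, -0.63 to 0.26 for Ldhb and -0.44 to 0.071 for Pdha1. The count of all genes called between the sources, 18, was 96 with only brighter genes, 69 with averaged probe sets, 75 with the treatment field, 200 with the replicate number as a block over all arrays, and 0 to 60 when an array was left out. Its calls therefore depend on these settings.

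The labels do not say that equal numbers pair the arrays, and deviations of same-numbered arrays correlated over all genes at 0.76 between the thymocyte groups and 0.50 between the emigrant groups, but between -0.10 and 0.11 across sources. With the replicate number as a block over all arrays, 1 gene of the 34, Pfkp, was called between the sources (adjusted p = 0.0278), and with the replicate block within each source 0 of the 34 were called for TCDD. That block called 1 gene of all genes for TCDD in thymocytes (smallest adjusted p = 0.0156) and 1 over both sources (0.0107), by limma. Under it 6 of the 34 had an unadjusted p under 0.05 in thymocytes and 5 in emigrants, where 6.37% and 6.04% of all genes did. With 2 arrays a group, small differences of single genes cannot be resolved, and dim probe sets carry no sign of signal over background.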
